A study of Mus musculus with 6 samples.

Results

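The genes described here encode 10 peptide-modifying enzymes, several of them anchored at the cell surface and others secreted, in the Golgi or in the cytosol, in the mouse melanoma lines B16-F1 and D5.1G4. They were given as a set of named genes: the aminopeptidases Anpep, Enpep, Lnpep and Npepps, the glutaminyl cyclases Qpct and Qpctl, the endopeptidases Mme and Ece1, and the serine peptidases Dpp4 and Fap. All 10 had a probe, among 20659 genes with one, and together they had 12 of the 39429 probes. B16-F1 is a line of the B16 melanoma of the C57BL/6 mouse, and the labels give D5.1G4 only as a melanoma line. Both lines were untreated and were grown for 24 h in RPMI-1640 with 10% fetal bovine serum, to a confluence of 75% to 95%. Each line was measured on 3 one-colour arrays, and whether these came from separate cultures is not stated, so errors and p-values measure only the spread between the arrays, which may be technical.

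Peptidases at the cell surface shorten peptide hormones, chemokines and kinins outside the cell, and so switch these signals off, or convert one active form into another. Aminopeptidases remove single residues from the amino end, DPP4 removes pairs of residues behind proline or alanine, and neprilysin and the endothelin-converting enzymes cut inside the chain. Glutaminyl cyclases close an amino-terminal glutamine into pyroglutamate, a ring that ordinary aminopeptidases cannot remove. In melanoma, aminopeptidase N is known from work on invasion and on the vessels of tumours, and the angiotensin and endothelin peptides that other members process act on vessels and on melanocytes.

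The set was put together with the difference between the lines already known. Member values between the lines are therefore given as a description, with standard errors and no p-values. Spots well above background made up 62.0% and 61.7% on B16-F1 replicates 2 and 3, and 53.4% to 54.4% on the other arrays. Over the features tested, the arrays of a line correlated at 0.983 to 0.993, and arrays of different lines at 0.941 to 0.957. All 7 melanocyte markers examined, among them Mitf, Sox10 and Tyr, were well above background on every array. The headers give 3 scan times: B16-F1 replicate 1 was scanned together with D5.1G4 replicates 2 and 3, B16-F1 replicates 2 and 3 were scanned together, and D5.1G4 replicate 1 was scanned alone.

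The start regions of 3 of the aminopeptidase genes are printed here because these genes showed 3 different patterns: Anpep was well above background in B16-F1 only, Enpep in D5.1G4 only, and Lnpep in both. The sequences are RefSeq's for GRCm38.p6, 250 bases before to 50 after the start, which had entries for 7 of the 10 members. Capitals mark, on either strand, the E-box CANNTG, the GC box GGGCGG, the TATA box TATAAA, the CCAAT box and the AP-1 site TGANTCA.
Anpep, chr7:79848161-79848460, minus strand: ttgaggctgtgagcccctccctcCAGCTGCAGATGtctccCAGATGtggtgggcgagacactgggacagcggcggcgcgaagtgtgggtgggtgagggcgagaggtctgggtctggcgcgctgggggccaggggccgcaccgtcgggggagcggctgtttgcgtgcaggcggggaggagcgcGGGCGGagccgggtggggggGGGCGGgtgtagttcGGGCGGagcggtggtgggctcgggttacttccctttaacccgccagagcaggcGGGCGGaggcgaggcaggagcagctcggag
Enpep, chr3:129332700-129332999, minus strand: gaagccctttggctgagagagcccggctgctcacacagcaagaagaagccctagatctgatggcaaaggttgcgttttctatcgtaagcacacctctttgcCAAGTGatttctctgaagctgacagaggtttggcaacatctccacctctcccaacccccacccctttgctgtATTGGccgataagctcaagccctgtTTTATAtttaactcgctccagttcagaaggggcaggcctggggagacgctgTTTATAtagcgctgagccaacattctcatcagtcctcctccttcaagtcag
Lnpep, chr17:17624440-17624739, minus strand: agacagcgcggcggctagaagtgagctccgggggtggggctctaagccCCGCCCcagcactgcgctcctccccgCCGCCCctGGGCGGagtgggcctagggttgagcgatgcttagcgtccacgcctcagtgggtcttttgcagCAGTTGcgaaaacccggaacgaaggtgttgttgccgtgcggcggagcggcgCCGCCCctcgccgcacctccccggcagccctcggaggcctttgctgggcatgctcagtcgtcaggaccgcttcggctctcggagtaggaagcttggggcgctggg
The Anpep window held 4 GC boxes, 3 E-boxes and no TATA box, and the Lnpep window 4 GC boxes and 1 E-box. The Enpep window held 2 TATA matches, 1 CCAAT box, 1 E-box and no GC box. Over all 32851 start regions of the table, 35.7% held a GC box, 13.6% a TATA box, 37.4% a CCAAT box, 72.3% an E-box and 7.81% the AP-1 site, which was in none of the windows printed. CpG dinucleotides numbered 28 for Anpep and 30 for Lnpep but 7 for Enpep, against a median of 7 over the table. A match is a string of letters and not evidence of binding.

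**Figure D1:**
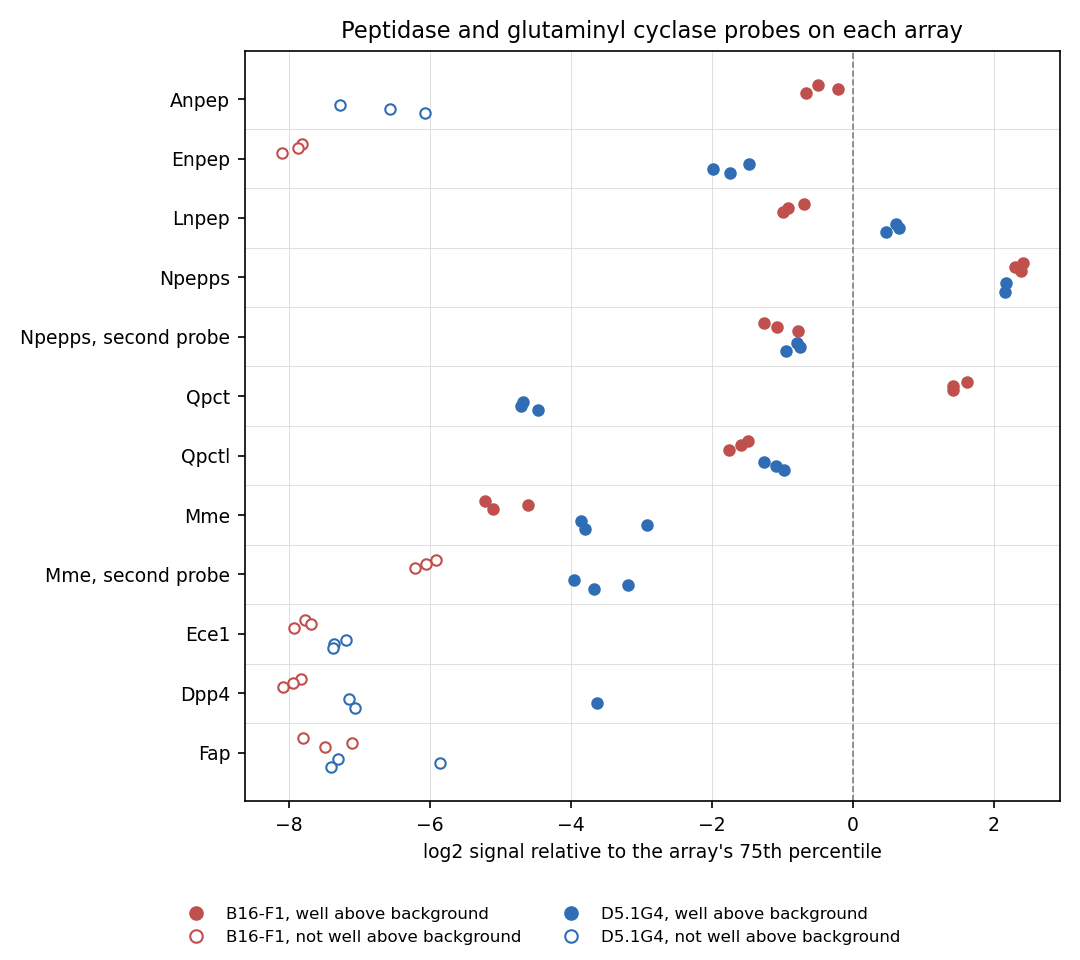
Log2 signal of the 12 member probes on each of the 6 arrays, relative to the array's 75th percentile (dashed line at 0); each point is 1 array, filled where the spot was well above background, with B16-F1 in red and D5.1G4 in blue. Anpep and Qpct lie to the right in B16-F1, Enpep in D5.1G4, and Dpp4 has a filled point on 1 D5.1G4 array.

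Qpct and Anpep stood much higher in B16-F1, and Enpep much higher in D5.1G4, by a ratio of 68.8 for Qpct and, since the dimmer line was not above background, by ratios of at least 25.6 for Anpep and at least 15.2 for Enpep. Lnpep and Mme were moderately lower in B16-F1, Npepps and Qpctl differed by less than 2-fold, and Dpp4, Fap and Ece1 were not well above background on most or all arrays. Testing required signal well above background on 3 or more of the 6 arrays, which 7 members had. A call needed both a 2-fold difference and an adjusted p no higher than 0.05 in limma, and 5 members met it, Qpct and Anpep higher (2) and Enpep, Lnpep and Mme lower (3) in B16-F1, where 15.2% of the 18442 features tested were called (6.28% higher and 8.89% lower). Because the set was chosen on this contrast, nothing is read from the count of members called. Anpep and Enpep passed the filter only through the line where they were high, so their calls set signal against background. The lines did not overlap for 9 of the 11 member probes measured on all 6 arrays, where 51.6% of all such probes and 50.7% of such tested features did not overlap. These 9 include the probes of Dpp4 and Ece1, whose separation lies mostly or wholly among background signals. Nothing is read from the count of probes without overlap either.

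Qpct, on chromosome 17, encodes the secreted glutaminyl cyclase. Its log2 signal relative to the 75th percentile was 1.63, 1.43 and 1.42 in B16-F1 and -4.68, -4.71 and -4.46 in D5.1G4, here and below in the order of replicates 1 to 3. The probe was well above background on all 6 arrays, and the lines lay far apart. In D5.1G4 it lay close to the lowest signal well above background on each array, -5.10, -5.09 and -5.21. As processed intensity, B16-F1 ran from 3652 to 5440 and D5.1G4 from 32.1 to 71.7. The difference, B16-F1 minus D5.1G4, was 6.11 log2 units (SE 0.13, n = 3 arrays in each line), a ratio of 68.8. It was 6.04 to 6.18 with any 1 array left out and 4.79 with normexp background correction.

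Qpctl, on chromosome 7, encodes the related cyclase that stays in the Golgi membrane and modifies CD47, among other proteins. Its signal was -1.49, -1.59 and -1.76 in B16-F1 and -1.26, -1.09 and -0.97 in D5.1G4, all above background. Every D5.1G4 array lay above every B16-F1 array. The difference was -0.50 (SE 0.13), a ratio of 1.42, under the minimum fold. The 2 cyclase genes thus differed in opposite directions and by very unequal amounts, and the difference between them was not tested.

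Anpep, on chromosome 7, encodes aminopeptidase N (CD13), which cleaves neutral residues from peptides. Its signal was -0.49, -0.21 and -0.66 in B16-F1. In D5.1G4 it was -7.27, -6.57 and -6.07, not well above background on any array. Only a bound on the ratio can be given: against the lowest signal among spots well above background, the B16-F1 mean was higher by a factor of at least 25.6. The measured means differed by 6.18 (SE 0.31), by 5.83 within the scan shared by both lines and by 3.46 with normexp.

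Enpep, on chromosome 3, encodes glutamyl aminopeptidase, which removes the acidic first residue of angiotensin II. It was the mirror image of Anpep: -1.47, -1.98 and -1.74 in D5.1G4, well above background on all 3 arrays, and -7.81, -7.87 and -8.10 in B16-F1, above background on none. It was at least 15.2-fold lower in B16-F1, and the measured means differed by -6.20 (SE 0.17). With normexp the difference was -2.44 (SE 0.78) and Enpep was no longer called. When signal above background was required on each of the 6 arrays, neither Anpep nor Enpep could be tested.

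Lnpep, on chromosome 17, encodes the insulin-regulated aminopeptidase, which travels in storage vesicles and cleaves oxytocin and vasopressin. Its signal was -0.68, -0.91 and -0.99 in B16-F1 and 0.61, 0.66 and 0.47 in D5.1G4, above background throughout. The lines did not overlap, and the difference was -1.44 (SE 0.13), a ratio of 2.72. It stayed between -1.53 and -1.25 under the 17 alternatives run.

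Npepps, on chromosome 11, encodes the puromycin-sensitive aminopeptidase, a largely cytosolic enzyme. Its brighter probe gave 2.41, 2.31 and 2.39 in B16-F1 and, in D5.1G4, 2.18 on replicate 1 and 2.16 on replicate 3. The spot on D5.1G4 replicate 2 was flagged in the file and left out. The difference was 0.20 (SE 0.12), with 3 and 2 arrays, and 0.37 with that spot kept, at 1.67. The second probe gave -1.26, -1.08 and -0.78 in B16-F1 and -0.78, -0.75 and -0.95 in D5.1G4, where the lines overlapped and the difference was -0.21 (SE 0.16). The probes of Npepps thus gave small differences of opposite sign, and no direction is given for this gene.

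Mme, on chromosome 3, encodes neprilysin (CD10), which degrades enkephalins, natriuretic peptides and other small peptides. Its brighter probe was -5.21, -4.60 and -5.10 in B16-F1 and -3.85, -2.92 and -3.80 in D5.1G4, above background on all 6 arrays. The second probe was -5.91, -6.05 and -6.21 in B16-F1, above background on none, and -3.95, -3.19 and -3.67 in D5.1G4, above background on all 3. Both probes were lower in B16-F1 without overlap. The first differed by -1.45 (SE 0.30), a ratio of 2.73, and the second was at least 4.15-fold lower (measured means -2.46 apart, SE 0.21). In B16-F1 the first probe lay close to the lowest signal well above background on each array, -5.50, -5.63 and -5.83. The call of the first probe was lost with normexp (-0.43, SE 0.60). It was also lost within the shared scan (-1.85), where B16-F1 replicate 1 stood alone for its line. The difference of the first probe was -1.15 without D5.1G4 replicate 2, the array with the highest value for both probes.

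Ece1, on chromosome 4, encodes the endothelin-converting enzyme that produces active endothelin. Its only probe stayed near background on all 6 arrays, with values of -7.77, -7.68 and -7.93 in B16-F1 and -7.19, -7.35 and -7.37 in D5.1G4. Signals at this level have no order, so the lack of overlap between the lines carries no direction. Whether the probe covers every Ece1 transcript is not known, since RefSeq lists 4 start regions for the gene.

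Dpp4 and Fap lie on chromosome 2 with only the glucagon gene Gcg between them among protein-coding genes. DPP4 (CD26) trims chemokines and incretins, and FAP, its closest relative, is best known from the fibroblasts of tumours. Dpp4 was not well above background on the B16-F1 arrays (-7.82, -7.94 and -8.08) or in D5.1G4 on replicate 1 (-7.14) and replicate 3 (-7.06), but was on D5.1G4 replicate 2, at -3.62. Fap was above background on no array, with -7.80, -7.10 and -7.49 in B16-F1 and -7.30, -5.85 and -7.40 in D5.1G4. Neither gene was tested and no fold is given, and D5.1G4 replicate 2 held the highest value of both, as it did for Mme. That array was the highest of D5.1G4 for 6 of the 12 member probes, against 3 for replicate 1 and 3 for replicate 3. The 6 include Lnpep, the second Npepps probe, both probes of Mme, and Fap, which was at background throughout. The share over all probes was not worked out, so nothing is read from this count.

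On D5.1G4 replicate 2, 208 probes were well above background that were so on no other array, against 162 and 236 on D5.1G4 replicates 1 and 3. B16-F1 replicates 1, 2 and 3 had 180, 903 and 720 such probes. Of 5 fibroblast markers, Pdgfra, Dcn, Col3a1 and Thy1 were above background on no array, and Lum on B16-F1 replicate 3 alone. The summed signal of the fibroblast list, in units of the 75th percentile, was 0.0469 on D5.1G4 replicate 2 and 0.0384 and 0.0362 on replicates 1 and 3. The summed signal of 5 leukocyte markers was 1.79 on D5.1G4 replicate 2 against 0.880 and 0.878 on the others, and ran from 0.810 to 2.03 in B16-F1. The higher sum on D5.1G4 replicate 2 lay in Itgam, whose log2 signal was -0.89, 0.54 and -0.88 in D5.1G4, while Ptprc, the pan-leukocyte marker CD45, was above background on no D5.1G4 array. Epithelial markers summed to between 0.169 and 0.337 in B16-F1 and between 0.222 and 0.300 in D5.1G4. Epcam, Krt8 and Krt18 were above background on no array, but Krt5 and Krt14 were on every array. Endothelial markers summed to between 0.672 and 1.49 in B16-F1 and between 0.826 and 0.897 in D5.1G4. Cdh5 and Tek were above background on none, but Pecam1 and Kdr were on every array. Another probe of Krt5, another of Kdr and another of the leukocyte marker Adgre1 were above background on none. The other Itgam probes did not match the one summed. One of them was above background on 2 B16-F1 arrays and on no D5.1G4 array. The other was above background on all arrays and differed by -0.74 (SE 0.23) between the lines. The part of other cells in the Dpp4 value was not tested. In bulk RNA, fewer cells with a transcript and less of it in each cell cannot be told apart.

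Beyond Fap on the chromosome, Ifih1, a sensor of viral RNA, was -0.85, -1.33 and -1.78 in B16-F1 and 0.73, 0.78 and 0.58 in D5.1G4. It fell by 2.02 on the log2 scale in B16-F1 (SE 0.24, limma adjusted p = 0.00168). Gca, the next gene, was -3.70, -3.89 and -3.88 in B16-F1 and -2.63, -3.01 and -2.82 in D5.1G4, without overlap, whereas Slc4a10 on the other side of Dpp4 was above background on no array.

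**Figure D2:**
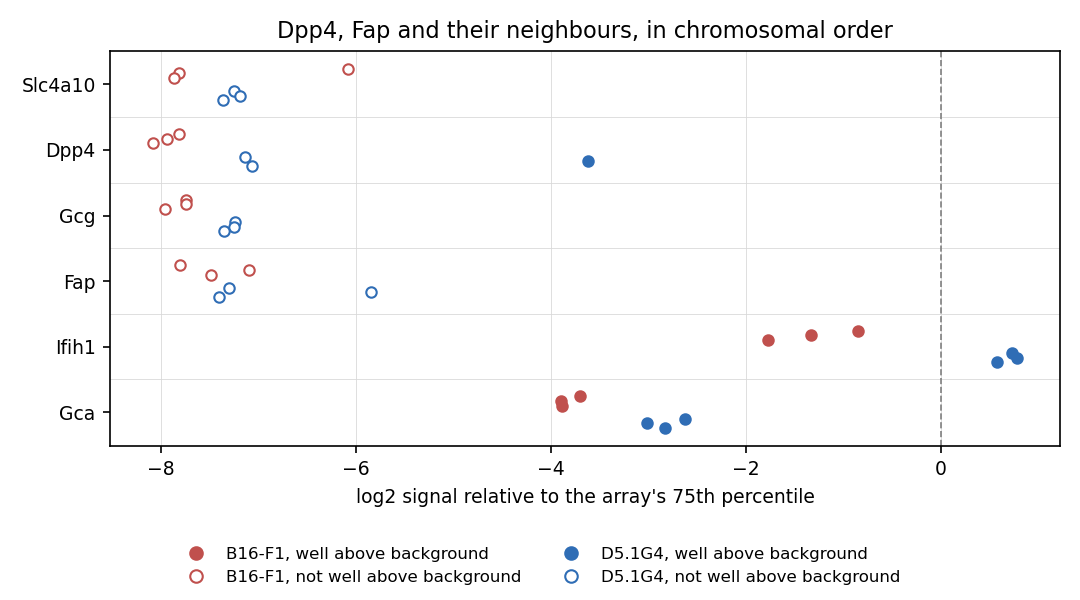
Log2 signal relative to the array's 75th percentile for Dpp4, Fap and their neighbours on chromosome 2, from top to bottom in chromosomal order; filled points were well above background, with B16-F1 in red and D5.1G4 in blue. Ifih1 and Gca are filled on all 6 arrays and lower in B16-F1, while Dpp4 is filled on 1 array and Gcg, Fap and Slc4a10 on none.

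The genes whose pattern over the 6 arrays was nearest to a called member were found by the root mean square distance of values centred on each gene's mean, among 12052 other named genes. The nearest to Qpct were Lgals3, which encodes galectin-3 (distance 0.18 log2 units), and Gpm6b, a membrane glycoprotein gene (0.20). The nearest to Anpep was Qpct itself (0.33), followed by Lgals3 (0.38). The nearest to Enpep were Gucy1a1, a subunit of soluble guanylate cyclase (0.27), and Cdkn1c, a cell cycle inhibitor (0.38). The nearest to Lnpep were Akap13 and Ctsc (0.040 and 0.043), and the nearest to Mme were Crebl2 and Fbxw27 (0.18 and 0.19). Anpep and Gpm6b in D5.1G4, and Enpep, Gucy1a1 and Cdkn1c in B16-F1, were above background on no array, so the distances that involve them rest on background values for 3 of the 6 arrays and give no order. The distance mainly picks genes with a like difference between the lines, so it is a description only.

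Of 50 tested genes in lists of related peptidases, substrates, receptors and partners, 5 rose and 3 fell, which is 16% of those tested against 15.2% of all features. The lists were written by function, with some of their values already known from an earlier account of these data. Among 12 tested further aminopeptidases of 16 listed, 1 was called, Erap1, which trims peptides for MHC class I in the endoplasmic reticulum. It was higher in B16-F1 by 1.06 (SE 0.15, limma adjusted p = 0.00293), and was under 2-fold when B16-F1 replicate 2 (0.96) or D5.1G4 replicate 2 (0.98) was left out, and with quantile normalization or normexp. None of the 13 dipeptidyl and prolyl peptidases was called, all of them tested, with a median difference of 0.07 against -0.0042 over all features. Prep, a cytosolic prolyl peptidase, differed by 0.60 (SE 0.13, limma adjusted p = 0.0138) and Pepd, which splits dipeptides that end in proline, by -0.62 (SE 0.11, limma adjusted p = 0.00758), both under the minimum fold. Another Dpp9 probe gave 1.12 where the brighter one gave -0.25, so no direction is given for Dpp9.

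Among 10 tested endopeptidases and carboxypeptidases of 15 listed, 1 was called. Ide, the insulin-degrading enzyme, gave 1.38, 1.47 and 1.39 in B16-F1 and 0.19, 0.49 and 0.24 in D5.1G4, and rose 2.15-fold (SE 0.12 on the log2 scale, limma adjusted p = 0.00134). The relatives of Mme and Ece1 were mostly absent from the test: Ecel1, Mmel1, Kel and Phex were not tested, and Ece2 differed by -0.28 (SE 0.29, limma adjusted p = 0.486). Cpe, a carboxypeptidase of prohormone processing, differed by -0.88 (SE 0.16, limma adjusted p = 0.00716), under the minimum fold.

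The peptide systems that the members act on were sparsely measured. None of the 5 endothelin ligand and receptor genes was tested, and Ednrb, the endothelin receptor of melanocytes, was above background on B16-F1 replicates 2 and 3 and nowhere else. Those arrays had the most spots above background, 62.0% and 61.7% against 54.4% or less on the others. No difference between the lines is therefore read from the detection of Ednrb. Of 7 angiotensin genes 4 were tested and 0 called (limma), where Agt, the precursor on whose products Enpep acts, differed by -0.03 (SE 0.16, limma adjusted p = 0.911). The receptor genes Agtr1a, Agtr1b and Agtr2 were above background on no array.

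Of 8 genes linked to pyroglutamate 3 were tested, of which 1 rose, 1 fell and 1 was not called. Cx3cl1, the chemokine fractalkine, which glutaminyl cyclases can modify, was -0.53, -0.60 and -0.75 in B16-F1 and -4.52, -4.51 and -4.12 in D5.1G4, and rose by 3.76 (SE 0.15, limma adjusted p = 4.11e-05). In D5.1G4 it lay not far above the lowest signal well above background on each array, -5.10, -5.09 and -5.21. With normexp the Cx3cl1 difference was 2.55 (SE 0.25). Pgpep1, the peptidase that removes pyroglutamate from peptides, was -0.81, -0.97 and -0.64 in B16-F1 and 1.00, 1.17 and 0.92 in D5.1G4, and fell by 1.84 (SE 0.14, limma adjusted p = 0.000326). In B16-F1, Qpct and Cx3cl1 were higher and Pgpep1 and Qpctl lower, on every array. Qpct was chosen on this contrast, and a link between these genes was not tested. Cd47, the substrate of the Golgi cyclase, differed by -0.15 (SE 0.12, limma adjusted p = 0.368). Ccl2, a chemokine with a pyroglutamate end, was above background on D5.1G4 replicates 1 and 3 and on no B16-F1 array, and Ccl7, Ccl8, Trh and Gnrh1 were on none.

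Of 11 substrates and partners of DPP4, 3 were tested. Ccl5, a T cell chemokine, fell by 2.86 (SE 0.30, limma adjusted p = 0.00109), and the interferon-induced chemokine gene Cxcl10 rose by 1.06 (SE 0.28, limma adjusted p = 0.0317), a call lost in 6 of 18 alternatives. Ada, adenosine deaminase, which binds DPP4, differed by 0.26 (SE 0.16, limma adjusted p = 0.271). All 5 vesicle partners of Lnpep were tested. Slc2a4, the insulin-regulated glucose transporter, rose by 1.32 (SE 0.27, limma adjusted p = 0.0117) with 1 of 3 D5.1G4 arrays above background, and lost its call in 5 of 17 alternatives, with limma adjusted p-values of 0.0524 with quantile normalization, 0.344 with normexp, 0.0686 with scan as a block, 0.083 within the shared scan and 0.0565 with a replicate block. Tbc1d4, which holds these vesicles back, was 0.91, 0.81 and 0.49 in B16-F1 and 2.01 on D5.1G4 replicate 1, with the spots of replicates 2 and 3 flagged. Its difference of -1.27 (SE 0.24, limma adjusted p = 0.0211) therefore had no spread of its own in D5.1G4, whose lone array was assumed to vary like those of B16-F1. With flagged spots kept it was -1.16 (SE 0.16, limma adjusted p = 0.00272), and the call was lost with scan as a block (limma adjusted p = 0.0676), with a replicate block (limma adjusted p = 0.157) and without B16-F1 replicate 2 (limma adjusted p = 0.0598). Another Tbc1d4 probe was above background on no array. Sort1, Vamp2 and Lrp1 were not called.

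**Figure D3:**
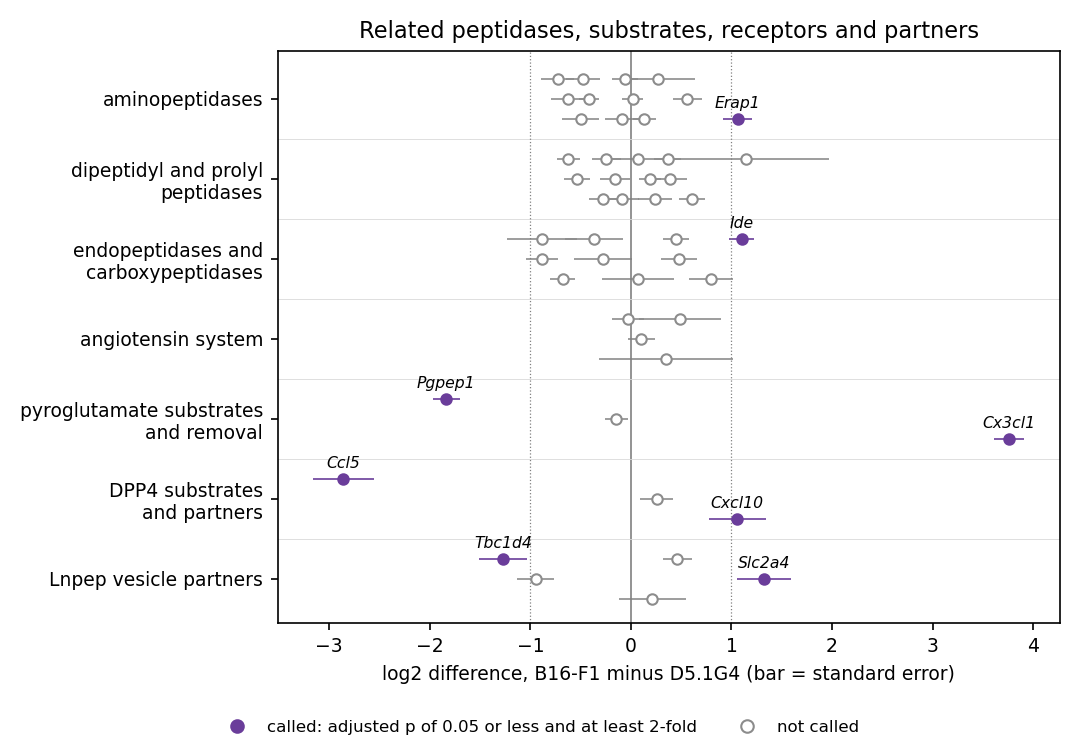
Log2 difference, B16-F1 minus D5.1G4, of the 50 tested genes of the function lists, 1 point per gene with its standard error; filled points were called and are named, and dotted lines mark 2-fold. Cx3cl1 lies farthest to the right at 3.76 and Ccl5 farthest to the left at -2.86, and most other points lie between the dotted lines.

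The deposited values of the authors held 9 of the 12 member probes, all except those of Dpp4, Fap and Ece1. From the authors' deposited table, differences were 6.06 for Qpct, 6.18 for Anpep, -5.94 for Enpep, -1.46 for Lnpep, -1.55 and -2.62 for the probes of Mme and -0.54 for Qpctl. The same 5 members were called from it.

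**Figure D4:**
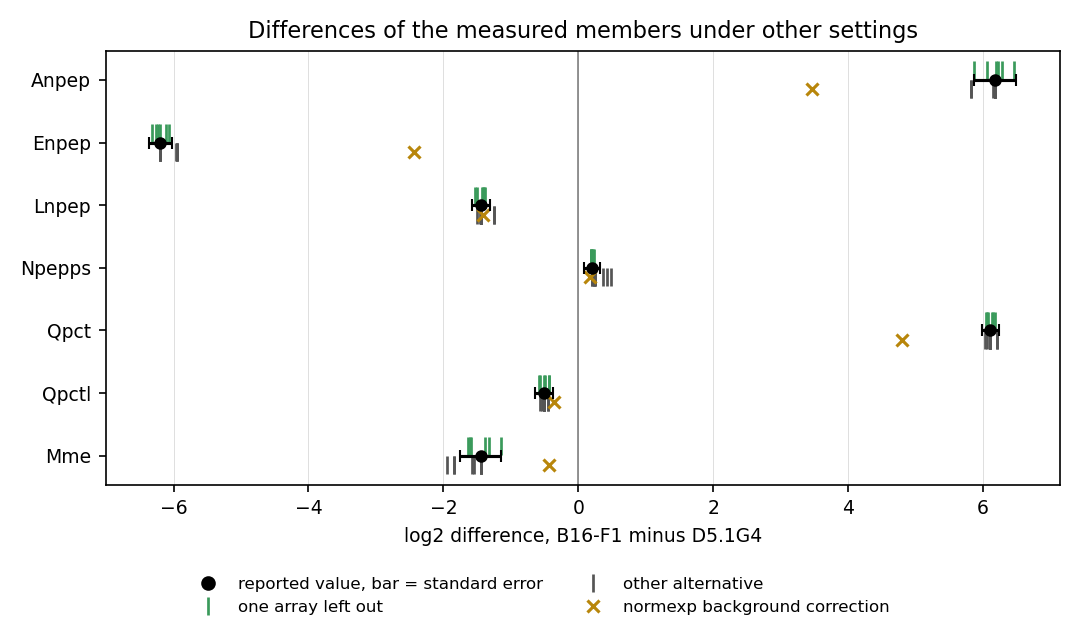
Log2 difference, B16-F1 minus D5.1G4, of the 7 tested members: the reported value with its standard error (black), values with 1 array left out (green), other alternatives (grey) and normexp background correction (crosses). Every member keeps its sign, and the crosses of Anpep, Enpep, Qpct and Mme lie nearer to 0 than all other values.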

How the data were processed

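The 6 one-colour arrays (Agilent mouse 4x44K, 3 for each of 2 lines) were grouped by their titles. The deposited scanner files give a processed intensity for each spot, and flags. Background was subtracted and spatial and multiplicative trends were removed within each array, per the file headers, with Agilent Feature Extraction 11.0.1.1, per the submitters' processing notes. A deposited table of the authors' values holds log2 signals whose normalization and centring are unknown here. Here the log2 intensity minus the array's 75th percentile was used, spots flagged as non-uniform or outlier were set to missing, spots of a probe were averaged and the brightest probe stood for a gene. No spot was saturated. Accessions were matched to the RefSeq gene table of GRCm38.p6 (27234 of 39429 probes, 69.1%), whose gene coordinates are not given because the array is annotated on another build.

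Lines were compared with limma 3.58.1 in R 4.3.3 (Python 3.11.15 for tables), 2-sided, with Benjamini-Hochberg adjustment over 18442 features, and the fit was tested on simulated data. D5.1G4 is the reference, as the series text sets it. A bound replaces the fold where no array of a line was well above background: the mean of the brighter line against, on each array of the other, the probe's own signal or the lowest signal well above background, whichever is higher. Differences under "normexp" use the median spot and background signals with an offset of 50, since the files used have no mean spot signal. The members and lists were chosen with earlier results of these data known. All members are named, with every called gene of the lists, some uncalled list genes, and Gca, picked with values in view. For each called member the 2 genes nearest in pattern are named. The number of arrays limits the precision. The result of 1 gene beside a member is not reported here.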

Additional observations from a re-analysis of the deposited data

How the results depend on the processing

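Of the 5 called members, 5 were called with quantile normalization, the authors' values, no filter on dim probes, flagged spots kept, the mean over probes, every probe as a feature, scan as a block, an unadjusted p, and any 1 array left out (5 to 5), and 4 within the shared scan. The count fell to 3 with normexp background correction, where Enpep and Mme lost their call, and to 3 when signal above background was required on each of the 6 arrays, since Anpep and Enpep then had no test. Over all features normexp called 1271 in place of 2799, and the other alternatives called 2057 to 3478. Of the companion genes 8 were called, 5 with normexp, 13 with no filter on dim probes, and 5 to 10 with 1 array left out, the fewest without B16-F1 replicate 2. The cause of these changes was not tested. No sign of a called member or companion gene changed. The median of all features moved to -0.17 without the filter on dim probes and to -0.15 both with scan as a block and within the shared scan, and differences under those settings are to be read relative to it. For genes measured on all arrays, both scan settings rest on the same contrast, since no other scan held both lines. That contrast sets B16-F1 replicate 1 alone against D5.1G4 replicates 2 and 3, so these settings are not separate checks. With a replicate block, the number as a term, 2580 features, 5 members and 6 companion genes were called. Deviations of same-numbered arrays correlated at -0.39, -0.03 and -0.30, so the numbers were not taken to pair the arrays. Signal over background limits Dpp4, Fap, Ece1 and the dimmer line of Anpep and Enpep.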

Other observations

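The nearest protein-coding genes with a probe on either side of the members were examined. Elovl6, a fatty acid elongase gene beside Enpep, differed by -0.73 (SE 0.17, limma adjusted p = 0.0175), under the minimum fold. Beside Qpct, Cdc42ep3, an effector of CDC42, fell by 1.27 (SE 0.15, limma adjusted p = 0.00171), opposite in direction to Qpct, and Prkd3, protein kinase D3, differed by 0.42 (SE 0.19, limma adjusted p = 0.135). Ap3s2 beside Anpep differed by 0.46 (SE 0.16, limma adjusted p = 0.0648). Mesp2, on the other side of Anpep, did not pass the filter on dim probes. Whether neighbouring genes share a cause of their differences was not tested.

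Alpl, the gene of tissue-nonspecific alkaline phosphatase, lies beside Ece1 and was at least 4.91-fold lower in B16-F1, where it was above background on no array, while all 3 D5.1G4 arrays measured it. It passed the filter on dim probes only through D5.1G4, so the bound is given without a p-value. Plch1, a phospholipase C gene near Mme, rose by 1.82 (SE 0.16, limma adjusted p = 0.000587), opposite to Mme.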
